A study of Mus with 18 samples.

Results

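Srebf2, Insig1, Hmgcs1, Idi1, Fdft1, Sqle and Lss are genes of the pathway that makes cholesterol. They were chosen by name as a transcription factor of the pathway and its known targets, and all 7 were present among the 21401 gene symbols of each expression file. Srebf2 encodes SREBP2, a transcription factor made as a precursor in the membrane of the endoplasmic reticulum. When sterols are low, the precursor is carried to the Golgi and cut, and the released part enters the nucleus and switches on the genes of cholesterol synthesis and uptake. Insig1 encodes a protein that holds the precursor back when sterols are plentiful and is itself an SREBP target, whereas the other 5 genes encode enzymes between acetyl-CoA and the first sterol.

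RNA-seq was used to ask how lipopolysaccharide (LPS, a bacterial cell wall component that provokes inflammation) and moringa isothiocyanate-1 (MIC-1, from seeds of Moringa oleifera) act on muscle. In the first experiment, wild-type C2C12 cells, a line of mouse myoblasts, were given vehicle (control), 1 μg/mL LPS, or 1 μg/mL LPS with MIC-1. The MIC-1 concentration is 10 μM in the sample labels but lower in the study's own text, and the labels state a treatment of 24 h for LPS-MIC-1 only. In the second, wild-type C57BL/6 male mice of unstated age received vehicle (control), 10 mg/kg LPS by intraperitoneal injection, or 80 mg/kg MIC-1 by gavage daily for 3 days and then the same LPS dose. Gastrocnemius muscle, a mixture of cell types, was collected 16 h after LPS. Each group had 3 libraries, 18 in all. Nothing in the labels states whether these came from separate cultures or from 1 mouse or several, so p-values measure the spread between libraries, which may be technical.

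Values are FPKM, reads scaled for transcript length and sequencing depth. The reads per library are unknown. From the size of the smallest steps between values, the LPS-MIC-1 libraries of C2C12 had 0.717, 0.884 and 0.464 times the depth of the first control library, LPS libraries 0.841 to 0.846 times, and muscle libraries 0.988 to 1.11 times. The genes with a mean FPKM over 1 in an experiment were tested with limma on log2(FPKM + 0.1), and p-values were adjusted over all of them by the Benjamini-Hochberg method. A gene passed at an adjusted p under 0.001 in C2C12 and under 0.05 in muscle, and calls over 2-fold are counted separately. In C2C12, 10877 genes were tested and 6 of the 7 members passed this filter on low values, all but Fdft1. In muscle, 9475 genes were tested with 4 of the 7 members, and Fdft1, Sqle and Lss did not pass the filter. With 3 libraries against 3, the smallest p of a two-sided exact permutation test is 0.1, its value for each tested member whose groups did not overlap.

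The C2C12 libraries did not all carry the markers of their cell line, so groups are named by their labels. Of 12 macrophage markers, 11 were found. Their summed FPKM was 8170 to 8290 in the libraries labelled control and 3720 to 3830 in those labelled LPS, against 104, 4.32 and 2.48 in LPS-MIC-1 replicates 1, 2 and 3. Their median FPKM went the other way between control and LPS, at 60.3 to 62.3 in control and 147 to 151 in LPS. In LPS-MIC-1 it was 4.62, 0.193 and 0.167. Lyz2, the lysozyme of macrophages, had 4690 ± 85.5 (SD, n = 3) in control, 1840 ± 45.4 in LPS, and 48.8, 1.87 and 0.616 in the LPS-MIC-1 libraries. The 10 myoblast markers summed to between 1.08 and 1.52 in control, to at most 4.58 under LPS, and to between 1080 and 1370 in LPS-MIC-1, and the myoblast regulator Myod1 was listed at 0 in 2 of 3 control and 2 of 3 LPS libraries. Fibroblast and matrix markers moved the same way, from sums of at most 1.95 in control and LPS to between 442 and 537 in LPS-MIC-1. Any difference between LPS-MIC-1 and the other C2C12 groups is therefore also one between libraries with different cell markers, and treatment and cell identity cannot be told apart there. In muscle, the fibre markers were high in all 9 libraries. Their summed FPKM was 204000 to 218000 in control and LPS and 163000 to 177000 in LPS-MIC-1. Their median went the other way, at 11600 to 11900 in control and LPS and 13400 to 14200 in LPS-MIC-1. Within its group, LPS-MIC-1 replicate 3 stood apart, with Lyz2 at 78.3 against 5.27 and 3.93. The cell cycle gene Mki67 was at 1.01 there against 0.0509 and 0.0211. The LPS-response genes of muscle were high in LPS-MIC-1 and not in LPS: their summed FPKM lay between 49.3 and 51.7 for control, between 39.6 and 40.8 for LPS, and between 2210 and 2440 for LPS-MIC-1. Neutrophil markers summed to at most 0.75 in control and LPS and to between 11.0 and 17.2 with MIC-1 added.

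In C2C12, the members were lower in the libraries labelled LPS than in those labelled control. Srebf2, Insig1, Idi1, Sqle and Lss fell, and Hmgcs1 was lower in every LPS library without passing the test. Of the 6 members tested, 5 fell and 0 rose (0 also rose at an unadjusted p under 0.05), beside 19.3% of all 10877 genes that fell and 18.6% that rose. Leaving out any 1 control or LPS library lowered the 5 to 3, since Insig1 and Lss then missed the threshold. Over 2-fold, 1 of 6 fell, against 10.0% of all genes. The groups did not overlap for any of the 6 members, as for 40.1% of all genes in this direction. The median log2 fold change was -0.75 over the 6 members and 0.00 over all genes. Cell cycle genes had a median FPKM of 70.9 to 75.7 in control and 16.0 to 18.1 in LPS, and LPS-response genes one of 17.1 to 17.3 in control and 339 to 344 in LPS. The part of either shift in the fall of the members was not tested. In bulk RNA, fewer cells of a kind and less RNA per cell cannot be told apart.

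The comparison of LPS-MIC-1 with LPS split the members. Insig1 and Lss fell over 2-fold, while Srebf2, Idi1, Sqle and Hmgcs1 did not pass the test. These 2 of 6 members stand beside 33.7% of all genes that fell, or 25.6% that fell over 2-fold, so the count of members is near the background. No member rose, against 32.8% of all genes, and at an unadjusted p under 0.05 only Sqle was higher. The groups did not overlap for 4 members that were lower (43.7% of all genes) and for 1 that was higher (41.8% of all genes), Sqle. Against control, which shares its libraries with both other comparisons, 5 of 6 members fell and 0 rose in LPS-MIC-1, beside 30.5% and 29.9% of all genes, and 3 of 6 fell over 2-fold, beside 22.1%. All 6 lay below control without overlap, as did 42.7% of all genes. The plot of FPKM per library shows the shapes behind these counts.

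**Figure D1:**
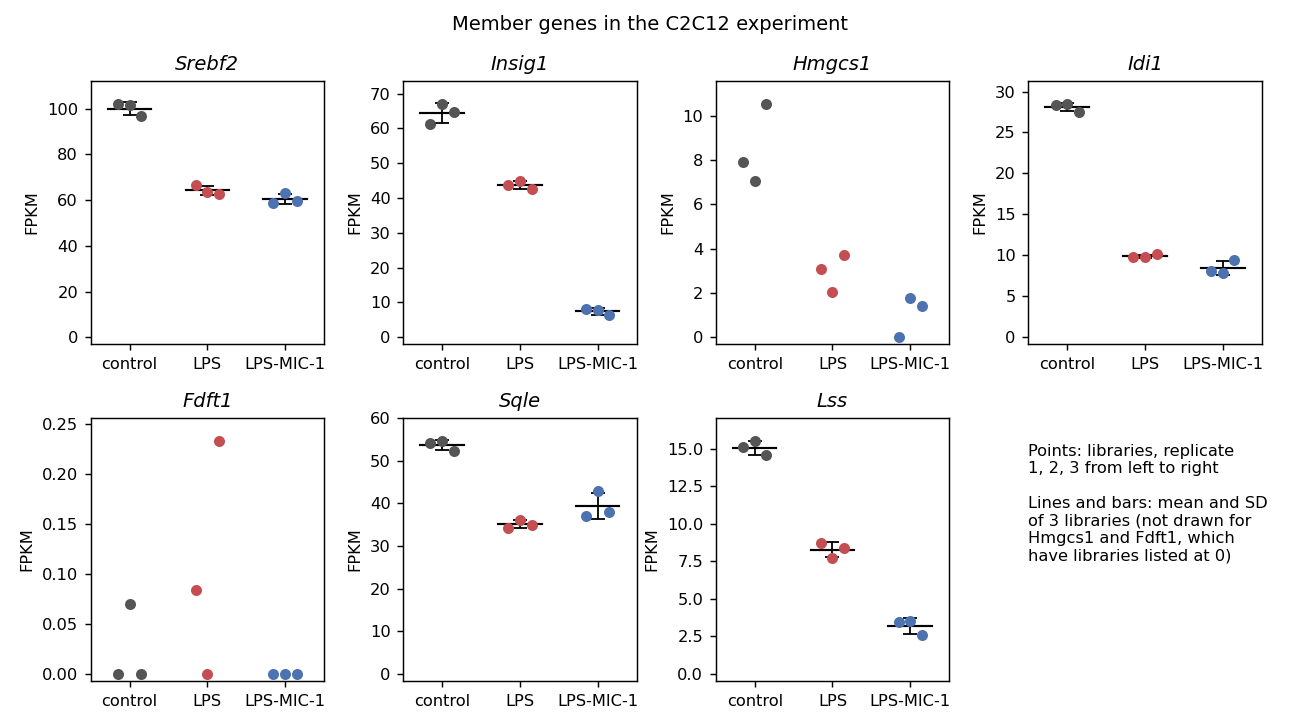
FPKM of each member in the 9 C2C12 libraries, by group. Points are libraries, horizontal lines are means and bars are SDs (n = 3). Srebf2, Idi1 and Sqle drop from control to LPS and then stay near the LPS level, with LPS-MIC-1 at 94.0%, 85.5% and 112% of LPS. Insig1 and Lss drop further, to 17.0% and 38.6% of LPS, and Fdft1 is at or near 0 in all libraries.

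Srebf2, the factor itself, had 102, 101 and 96.7 FPKM in the control libraries, 66.4, 63.7 and 62.8 in LPS, and 58.6, 63.1 and 59.6 in LPS-MIC-1. The 3 control libraries lay above all others, and the LPS and LPS-MIC-1 groups overlapped. Its level in LPS was 64.3% of control, a log2 fold change of -0.64 (SE 0.0447, limma adjusted p = 6.68e-06). LPS-MIC-1 differed from LPS by -0.09 on the log2 scale (95% CI -0.19 to 0.01, adjusted p = 0.0929) and from control by -0.73 (adjusted p = 1.22e-06). Among the members Srebf2 had the highest FPKM in each group of libraries.

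Insig1, the retention protein and SREBP target, had 61.3, 66.9 and 64.8 FPKM in control, 43.6, 44.8 and 42.7 in LPS, and 8.1, 7.85 and 6.36 in LPS-MIC-1. No group overlapped another, and the step from LPS to LPS-MIC-1 was the wider one on the log2 scale. It fell by 0.56 on that scale in LPS (SE 0.09, adjusted p = 0.000795), a level of 67.9% of control. In LPS-MIC-1 it was 5.84-fold lower than in LPS (log2 fold change -2.55, SE 0.09, adjusted p = 4.52e-08) and 8.59-fold lower than in control (-3.10, adjusted p = 1.61e-08). The fall in LPS lies close to the threshold, and its adjusted p reached 0.00467 when a library was left out. Without LPS-MIC-1 replicate 1, the library with a trace of macrophage genes, the difference from LPS was -2.61 (adjusted p = 1.55e-07).

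Lss makes lanosterol, the first sterol of the pathway. It had 15.1, 15.5 and 14.6 FPKM in control, 8.71, 7.72 and 8.4 in LPS, and 3.43, 3.53 and 2.62 in LPS-MIC-1. As with Insig1, the 3 groups were stepwise lower and did not overlap. LPS was at 54.9% of control (log2 fold change -0.86, SE 0.119, adjusted p = 0.000332), and this call was lost, at adjusted p up to 0.00225, when any 1 control or LPS library was left out. LPS-MIC-1 was 2.56-fold below LPS (-1.36, SE 0.119, adjusted p = 9.87e-06), or -1.41 (adjusted p = 2.78e-05) without its replicate 1. Over the 9 libraries, Insig1 and Lss had the second highest Pearson correlation of log2 values between any 2 members (r = 0.972), below that of Srebf2 with Idi1 (r = 0.986). These r values describe the differences between 3 groups more than any variation within them.

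Idi1, which converts isopentenyl diphosphate into the isomer that starts chain building, showed the deepest fall in LPS among the members that passed. Its values were 28.3, 28.4 and 27.6 FPKM in control, 9.75, 9.8 and 10.1 in LPS, and 8.12, 7.85 and 9.39 in LPS-MIC-1. Control stood far above the other groups, which came close to each other without overlapping. LPS was 2.82-fold lower than control (log2 fold change -1.50, SE 0.0735, adjusted p = 1.02e-06). The further difference of -0.23 in LPS-MIC-1 (95% CI -0.40 to -0.06, adjusted p = 0.0188) did not pass, though without LPS-MIC-1 replicate 3, the library of lowest depth, it was -0.30 and passed (adjusted p = 0.000389).

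Sqle, squalene epoxidase, a rate-limiting enzyme of the sterol branch, had 54.3, 54.6 and 52.3 FPKM in control, 34.3, 36.2 and 34.9 in LPS, and 37.1, 42.9 and 38 in LPS-MIC-1. It was the 1 member whose LPS-MIC-1 libraries all lay above the LPS libraries, and all 6 lay below control. The fall in LPS was to 65.4% of control (log2 fold change -0.61, SE 0.0597, adjusted p = 4.25e-05). LPS-MIC-1 was 0.16 above LPS on the log2 scale (95% CI 0.02 to 0.30, adjusted p = 0.0332), which did not pass, and 0.45 below control, which did (adjusted p = 0.000151), a call lost without control replicate 1 (adjusted p = 0.00106) or 2 (adjusted p = 0.0011).

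Hmgcs1 makes HMG-CoA, an early intermediate of the pathway. Its values were 7.89, 7.03 and 10.5 FPKM in control, 3.08, 2.03 and 3.73 in LPS, and 0, 1.75 and 1.42 in LPS-MIC-1. The groups did not overlap, and 1 library was listed at 0. The same gene was also listed at 0 in 2 muscle libraries between libraries of several FPKM, and an exact 0 can be a failed estimate, so each library is given and no mean. The log2 fold change was -1.51 in LPS against control (95% CI -3.83 to 0.80, adjusted p = 0.223) and -3.69 in LPS-MIC-1 against control (95% CI -6.00 to -1.37, adjusted p = 0.00884), neither past 0.001. Both tests depended on the listed 0, since the groups share the estimate of the spread. Without that library, LPS against control stayed at -1.51, but its SE was 0.249 in place of 1.0. Its limma adjusted p was then 0.00122, still not past 0.001. LPS-MIC-1 against control was -2.33 without that library and passed (adjusted p = 0.000152). With a pseudocount of 1 it was -2.32 and passed (adjusted p = 0.000377).

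Fdft1, squalene synthase, which commits the pathway to sterols, was at or near 0 in all 9 C2C12 libraries. It was listed at 0, 0.0698 and 0 FPKM in control, at 0.0837, 0 and 0.233 in LPS, and at 0 in the 3 LPS-MIC-1 libraries. All groups overlapped, and no fold is given. The enzymes on both sides of it, Fdps and Sqle, had up to 292 and 54.6 FPKM in the same libraries.

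In muscle few members differed between groups. Of the 4 members tested, 0 passed in LPS against control, beside 7.48% of all 9475 genes that fell and 8.25% that rose, and only Insig1 was lower at an unadjusted p under 0.05. In LPS-MIC-1 against LPS, 0 of 4 passed and 0 had an unadjusted p under 0.05, beside 28.2% of all genes that fell and 28.3% that rose. In LPS-MIC-1 against control, 1 of 4 fell, Insig1, beside 28.5% that fell and 30.0% that rose. The groups did not overlap, with LPS lower than control, for 2 of 4 members (17.7% of all genes), and with LPS-MIC-1 lower than control for 1 of 4 (31.1% of all genes). The median log2 fold change of the 4 members was -0.16, -0.03 and -0.18 in the same order of comparisons, and that of all genes 0.01, -0.01 and 0.01.

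**Figure D2:**
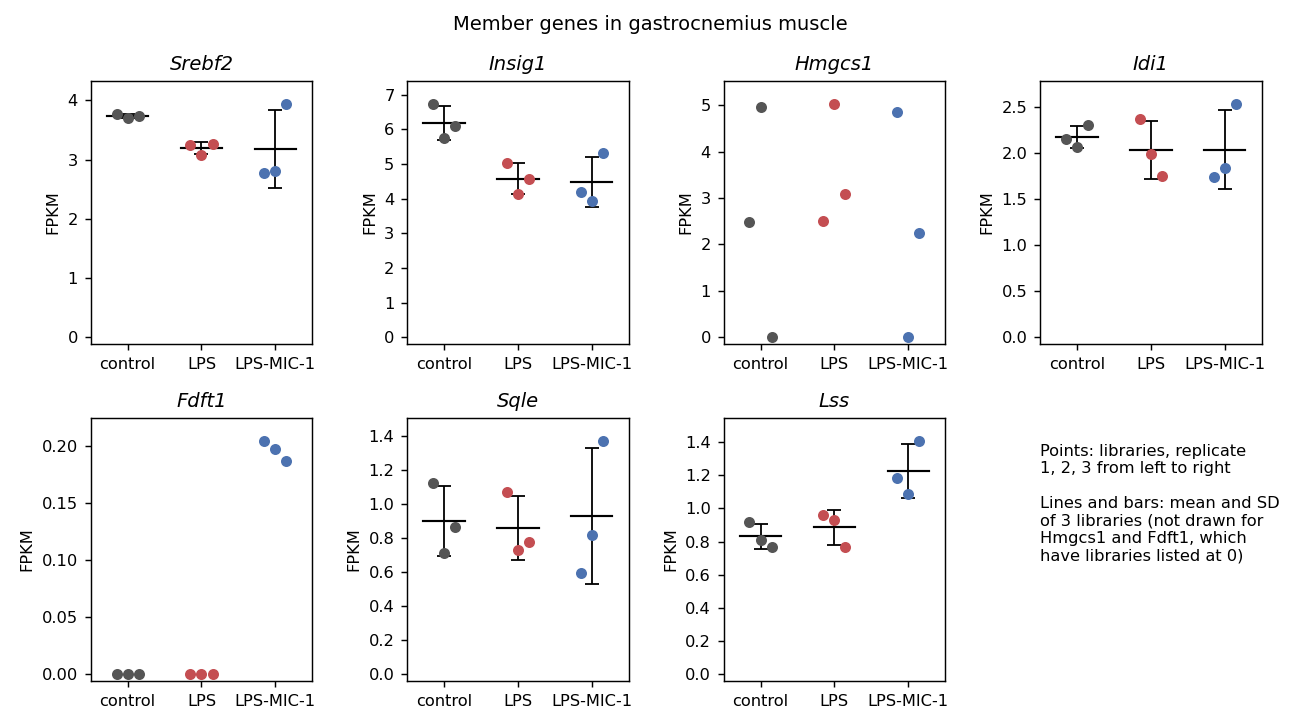
FPKM of each member in the 9 muscle libraries, drawn as in the plot for C2C12. LPS-MIC-1 replicate 3 is the last point of the LPS-MIC-1 group in each panel and is the highest LPS-MIC-1 library for Srebf2, Insig1, Idi1, Sqle and Lss. For Srebf2 it lies at 3.94 FPKM against 2.78 and 2.81.

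Srebf2 had 3.77, 3.7 and 3.74 FPKM in control muscle, 3.24, 3.08 and 3.27 in LPS, and 2.78, 2.81 and 3.94 in LPS-MIC-1. The LPS libraries all lay below the control libraries, whereas LPS-MIC-1 held both the lowest values and the highest one. LPS against control gave -0.22 on the log2 scale (95% CI -0.52 to 0.08, limma adjusted p = 0.306) and LPS-MIC-1 against control -0.25 (95% CI -0.54 to 0.05, adjusted p = 0.139). Without LPS-MIC-1 replicate 3 the second difference was -0.40 and passed (adjusted p = 0.00361), and that from LPS was -0.19 (adjusted p = 0.0814).

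Insig1 had 6.72, 5.74 and 6.11 FPKM in control muscle, 5.02, 4.14 and 4.57 in LPS, and 4.2, 3.94 and 5.31 in LPS-MIC-1. All 6 treated libraries lay below control, and the treated groups overlapped. The difference of LPS from control was -0.43 (SE 0.126, adjusted p = 0.0537), which did not pass. Insig1 fell in LPS-MIC-1 to 72.3% of control (log2 fold change -0.47, SE 0.126, adjusted p = 0.0122). LPS-MIC-1 and LPS differed by -0.04 (95% CI -0.33 to 0.25, adjusted p = 0.821). The same order of groups was seen in the summed FPKM of the 12 muscle fibre markers and of the 6 endothelial markers. For fibre markers it lay between 212000 and 218000 in control, 204000 and 208000 in LPS, and 163000 and 177000 in LPS-MIC-1. For endothelial markers it lay between 106 and 109 for control, between 69.7 and 73.2 for LPS, and between 63.4 and 68.7 when MIC-1 was added. Their median per library was 10.2, 11.1 and 13.1 for control, above all treated libraries. The treated groups overlapped in this median, with LPS at 7.12, 7.92 and 9.0 and LPS-MIC-1 at 9.49, 8.14 and 8.37. The 6 fibroblast and matrix markers had a median between 11.5 and 12.3 in the 6 control and LPS libraries and between 4.9 and 6.11 in the LPS-MIC-1 libraries, while their sum was 117 to 124 and 134 to 152. No gene of either list was at 0 throughout a group, and the part of these cell types in the values of Insig1 was not tested. Without LPS-MIC-1 replicate 3, Insig1 was -0.59 against control (adjusted p = 0.00261), and the difference of LPS from control, which shares the estimate of the spread, passed (adjusted p = 0.023).

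Idi1 had 2.15, 2.06 and 2.3 FPKM in control, 2.36, 1.99 and 1.75 in LPS, and 1.74, 1.84 and 2.53 in LPS-MIC-1, and all groups overlapped. Its differences were -0.10, -0.01 and -0.11 in LPS against control, LPS-MIC-1 against LPS and LPS-MIC-1 against control, with 95% intervals that reached from -0.49 to 0.38. Without LPS-MIC-1 replicate 3 the last 2 were -0.16 (adjusted p = 0.393) and -0.26 (adjusted p = 0.176). Hmgcs1 had 2.49, 4.95 and 0 FPKM in control, 2.51, 5.02 and 3.08 in LPS, and 4.86, 0 and 2.24 in LPS-MIC-1. The libraries scattered from 0 to 4.95 within control, from 2.51 to 5.02 within LPS, and from 0 to 4.86 when MIC-1 was added, so that the intervals of its differences spanned several log2 units and no direction could be read. Ywhaz, a gene that all cells use, was likewise listed at 0 in 2 of the 9 muscle libraries.

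The 3 members that did not pass the filter were near 1 FPKM or below. Sqle had 1.12, 0.713 and 0.866 FPKM in control, 1.07, 0.726 and 0.776 in LPS, and 0.593, 0.817 and 1.37 in LPS-MIC-1, and all groups overlapped. Lss had 0.918, 0.807 and 0.769 in control, 0.962, 0.928 and 0.764 in LPS, and 1.18, 1.09 and 1.41 in LPS-MIC-1. Here the LPS-MIC-1 libraries were the 3 highest. When all 15434 genes above 0 in at least 3 libraries were tested, Lss was 0.51 higher in LPS-MIC-1 than in control (adjusted p = 0.0457) and 0.43 higher than in LPS (adjusted p = 0.0845). Fdft1 was listed at 0 in the 6 control and LPS libraries of muscle and had 0.205, 0.197 and 0.187 FPKM in LPS-MIC-1, too low a level for a fold.

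**Figure D3:**
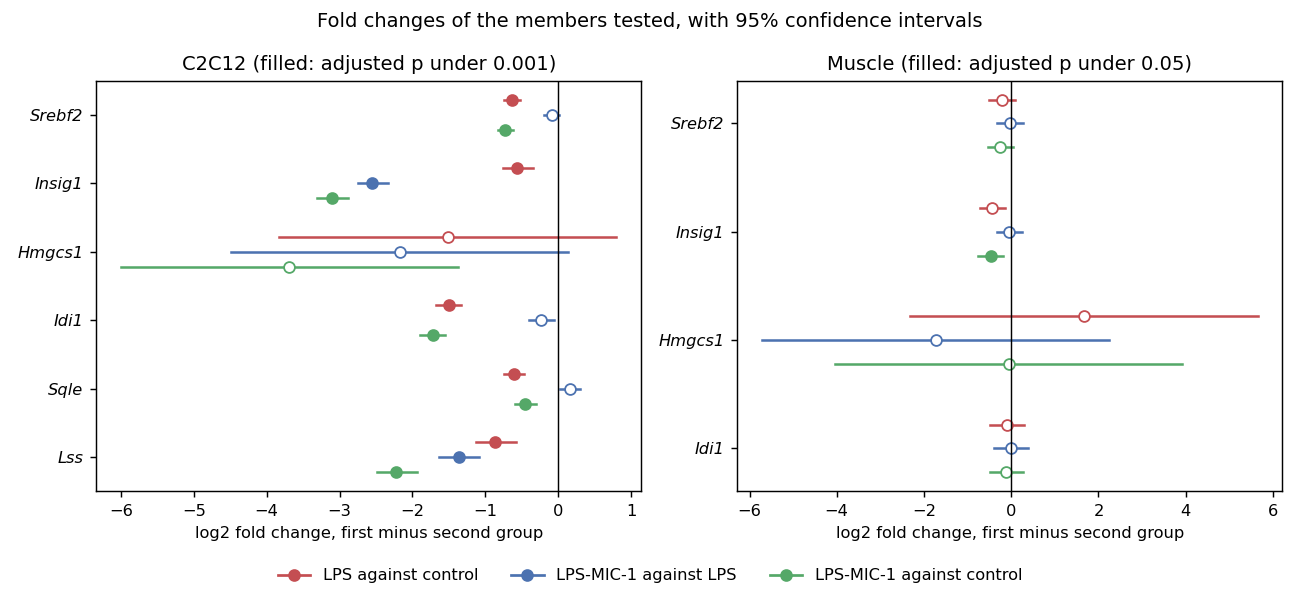
Log2 fold changes of the members tested, with 95% confidence intervals from limma, in C2C12 (left) and muscle (right). Colours mark the 3 comparisons and filled points passed the adjusted p of that experiment. In C2C12 the points of LPS against control lie left of 0 for 6 of 6 members, while in muscle 1 point is filled, Insig1 in LPS-MIC-1 against control at -0.47.

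LPS-MIC-1 replicate 3 of muscle was the highest library of its group for 5 of the 7 members, beside 25.8% of all 9475 genes. It was also highest for 10 of 11 macrophage markers, 10 of 10 cell cycle genes and 13 of 16 other sterol enzymes. The summed macrophage markers were 146 in that library and 14.8 and 12.8 in the other 2, against 12.3 to 18.0 in control and LPS. Set against the C2C12 control libraries, whose table was normalized separately, its excess over the mean of replicates 1 and 2 amounted to 1.14% of the C2C12 control level for Srebf2, 1.23% for Sqle, 1.93% for Insig1, 1.80% for Lss and 2.62% for Idi1. Hmgcs1 was lower there than that mean, at -2.19%, and Fdft1 was too near 0 in C2C12 for a share. For the 11 macrophage markers the same excess ran from 0 for Aif1 to 4.18% for Fcgr3, with Lyz2 at 1.57%, for the 10 cell cycle genes from 0.264% for Pcna to 2.08% for Plk1, and for the 16 other sterol enzymes from -0.363% for Dhcr7 to 18.5% for Tm7sf2. The part of these markers in the members' values was not tested. For Srebf2, Insig1 and Idi1, most tests without that library are given beside the result. The others did not pass. LPS against control gave -0.22 for Srebf2 (limma adjusted p = 0.0767) and -0.10 for Idi1 (adjusted p = 0.664). LPS-MIC-1 against LPS gave -0.16 for Insig1 (adjusted p = 0.239).

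The other enzymes of cholesterol synthesis form a list of 16 genes, all of them found. In C2C12, 12 of the 16 fell in LPS and 0 rose (0 also at an unadjusted p under 0.05), beside 19.3% and 18.6% of all genes, and the median log2 fold change was -0.97, where that of all genes was 0.00. Acat2, which joins acetyl-CoA units, fell by 1.84 on the log2 scale (adjusted p = 4.53e-07), and Lbr, a sterol reductase of the nuclear envelope, by 1.69 (adjusted p = 4.19e-06). Leaving out any 1 control or LPS library lowered the count to 6 or 7.

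In LPS-MIC-1 against LPS the same list split, with 7 of 16 lower and 4 higher, beside 33.7% and 32.8% of all genes. Mvd, which makes isopentenyl diphosphate, fell by 1.45 (adjusted p = 1.34e-05). Acat2, which had fallen in LPS, rose by 1.73 (adjusted p = 1.46e-07), and Ebp and Cyp51 also rose. The LPS libraries are shared by both comparisons, so a low LPS value enters each with opposite sign. Against control, 10 of 16 fell, beside 30.5% of all genes, and 1 rose, Ebp, whose rise was lost without LPS-MIC-1 replicate 1 (adjusted p = 0.00157). Fdps, which builds farnesyl diphosphate just before Fdft1, had 286 ± 9.04 FPKM in control, 107 ± 3.1 under LPS, and 63.9 ± 10.7 with MIC-1 added, and Mvd had 62.8 ± 2.87, 34.1 ± 0.849 and 12.6 ± 2.6.

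**Figure D4:**
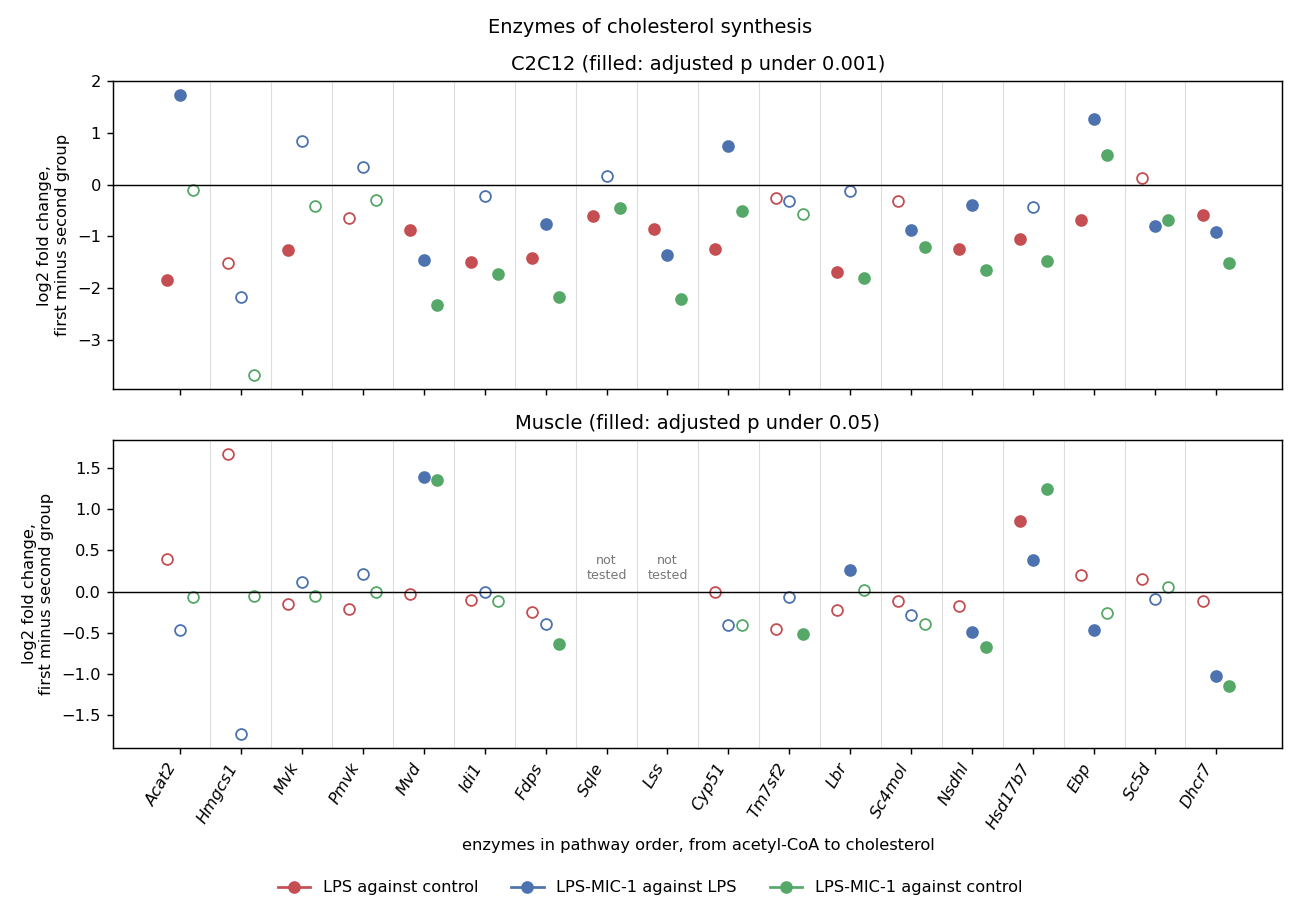
Log2 fold changes of the 14 further enzymes tested in both experiments and of the members Hmgcs1, Idi1, Sqle and Lss, in pathway order, in C2C12 (top) and muscle (bottom). Filled points passed the adjusted p, and genes marked as not tested had a mean FPKM of 1 or less, as did Fdft1, which is not drawn. In C2C12 most LPS points lie below 0, while LPS-MIC-1 against LPS lies on both sides, from -1.45 for Mvd to 1.73 for Acat2 among the filled points.

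In muscle, 14 of the 16 enzymes were tested. Hsd17b7, a sterol ketoreductase, rose in LPS by 0.86 (adjusted p = 0.00303), and the other 13 did not pass, where 8.25% of all genes rose. In LPS-MIC-1 against LPS, 3 rose and 3 fell, beside 28.3% and 28.2% of all genes, among them Mvd, from 4.99 ± 0.278 to 13.2 ± 0.6 FPKM (log2 fold change 1.39, adjusted p = 3.94e-07), and Dhcr7, the last step to cholesterol, from 4.74 ± 0.611 to 2.26 ± 0.228 (-1.03, adjusted p = 0.00011). Without LPS-MIC-1 replicate 3 these counts were 1 and 5, with Mvd at 1.37 (adjusted p = 5.35e-06) and Dhcr7 at -1.01 (adjusted p = 0.000656). Against control, 2 rose and 4 fell (2 and 5 without that library), beside 30.0% and 28.5% of all genes.

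Of 10 genes that regulate SREBP processing, 4 rose and 2 fell in LPS in C2C12, beside 18.6% and 19.3% of all genes. Scap, the escort that carries SREBP to the Golgi, fell by 0.66 (adjusted p = 8.73e-06), as did Mbtps1, the protease that makes the first cut, by 0.72 (adjusted p = 9.36e-06). Insig2, the second retention protein, rose by 0.61 (adjusted p = 0.000877). When LPS-MIC-1 was set against LPS, 4 rose and 4 fell, beside 32.8% and 33.7% of all genes. Scap rose by 0.71 (adjusted p = 2.2e-06), while Srebf1, which encodes SREBP1, fell from 32.0 ± 3.95 to 3.28 ± 1.91 FPKM (log2 fold change -3.47, adjusted p = 0.000179) and Mbtps2, the protease of the second cut, fell by 1.93 (adjusted p = 3.18e-07). LPS-MIC-1 replicate 1 had 1.09 FPKM of Srebf1 against 4.21 and 4.54 in the other replicates, and without it the log2 fold change was -2.84 (adjusted p = 3.68e-06). In muscle, 9 of the 10 were tested, without Srebf1. No gene passed in LPS by limma, beside 8.25% of all genes that rose and 7.48% that fell. At an unadjusted p under 0.05, 1 was higher and 1 lower. In LPS-MIC-1 against LPS, 3 rose and 1 fell, beside 28.3% and 28.2% of all genes. The fall was that of Insig2 by 0.42 (adjusted p = 0.000434).

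Sterol uptake and transport genes (10 listed) were 4 higher and 4 lower in LPS in C2C12, beside 18.6% and 19.3% of all genes, and 1 higher and 9 lower in LPS-MIC-1 against LPS, beside 32.8% and 33.7%. Gramd1a, which moves sterol between membranes, had 27.9 ± 0.864 FPKM in control, rose to 80.8 ± 4.51 in LPS (log2 fold change 1.53, adjusted p = 2.93e-07) and fell to 12.8 ± 0.61 in LPS-MIC-1 (-2.64 against LPS, adjusted p = 6.12e-09). Lipa, the lysosomal lipase that frees cholesterol from its esters, fell from 127 ± 3.97 in LPS to 15.7 ± 2.9 in LPS-MIC-1 (-3.02, adjusted p = 8.06e-08). In muscle, Scarb1, a lipoprotein receptor, had 12.2, 10.4 and 8.72 FPKM in control, 5.49, 6.5 and 7.68 in LPS, and 1.26, 1.81 and 3.01 in LPS-MIC-1. The 3 groups did not overlap, and the fall from LPS to LPS-MIC-1 passed (log2 fold change -1.72, adjusted p = 0.000985, or -2.03 and 0.000177 without LPS-MIC-1 replicate 3), while that from control to LPS did not (-0.66, adjusted p = 0.161). Of the 8 genes of this list tested in muscle, 3 rose and 2 fell in LPS-MIC-1 against LPS, beside 28.3% and 28.2% of all genes. Without that library, 1 rose and 2 fell.

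Other lists surround the pathway. Their counts stand beside 18.6% of all genes that rose and 19.3% that fell in LPS in C2C12, and 32.8% and 33.7% in LPS-MIC-1 against LPS, and in muscle beside 8.25% and 7.48%, and 28.3% and 28.2%. Of 12 fatty acid enzymes under SREBP1 tested in C2C12, 10 fell and 1 rose in LPS, Fasn (fatty acid synthase) by 1.81 (adjusted p = 1.03e-06) and Scd1 (stearoyl-CoA desaturase) by 1.74 (adjusted p = 6.03e-08), and 5 fell and 3 rose in LPS-MIC-1 against LPS. In muscle, 3 of 11 fell and 1 rose in LPS, or 6 and 1 without LPS-MIC-1 replicate 3. In LPS-MIC-1 against LPS, 2 of these 11 fell and 4 rose, or 3 and 4 without that library. Of 10 LXR targets and efflux genes in C2C12, 2 rose and 3 fell in LPS, with the cholesterol exporter Abca1 up by 2.04 (adjusted p = 7.02e-06), and 3 rose and 4 fell in LPS-MIC-1 against LPS. Ch25h, whose product 25-hydroxycholesterol blocks SREBP processing, was listed at 0 or near 0 in control and LPS and had a mean of 15.3 FPKM in LPS-MIC-1 (adjusted p = 3.23e-08 against LPS). In muscle, 2 of 6 rose and 1 fell in LPS, and 2 rose and 2 fell in LPS-MIC-1 against LPS, Abca1 by 1.11 (adjusted p = 0.00031) upwards and Nceh1, which frees stored cholesterol, by 1.93 downwards (adjusted p = 4.03e-06). Of 12 isoprenoid branch genes in C2C12, which use the same precursors for prenyl groups and ubiquinone, 1 rose and 2 fell in LPS and 6 rose and 2 fell in LPS-MIC-1 against LPS. In muscle, 0 of 9 passed in LPS by limma (2 higher at an unadjusted p under 0.05), and 2 rose and 3 fell in LPS-MIC-1 against LPS.

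The genes whose log2 profile over the 9 C2C12 libraries was most like the mean of the 6 tested members were Klrg2 (Pearson r = 0.998), Elovl6, a fatty acid elongase (r = 0.996), and Pet112l (r = 0.996), and 673 of 10871 genes (6.19%) had an r over 0.9. With 3 groups of close replicates, such an r mainly reflects the differences between group means. It need not fix which of LPS and LPS-MIC-1 is lower. The 3 genes named were highest in control and lowest in LPS-MIC-1. In muscle the nearest were Fmnl1 (r = 0.959), Fos (r = 0.950) and Scd2 (r = 0.944), all over 9 libraries and against the mean of 4 members. Scd2, a desaturase, had 6.81 FPKM in LPS-MIC-1 replicate 3 against 1.56 and 1.28, and the part of that library in the likeness was not tested.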

How the data were processed

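RNA-seq libraries of C2C12 cells and of mouse gastrocnemius muscle were analysed, 3 per group and 9 per experiment. The authors pseudoaligned the reads with kallisto to mm9 and deposited FPKM values made with tximport, 1 table per experiment, so tests were made within a table only, and the one set of levels given across tables is named as such. Reads per library are unknown and the number of libraries limits the precision. The authors' 6 tables of DESeq2 fold changes and p-values were not used, nor were 9 per-sample columns of the muscle table that carry no name. Groups and replicate numbers were taken from the sample labels.

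Log2(FPKM + 0.1) of genes with a mean FPKM over 1 was fitted with limma 3.58.1 in R 4.3.3, with 3 group means over 9 libraries, moderated variances with a trend, and Benjamini-Hochberg adjustment over all genes tested in a comparison. The adjusted p limits (0.001 and 0.05), the filter and the 2-fold limit follow the study's methods, but limma on FPKM replaces its count model. Fold changes are on the log2(FPKM + 0.1) scale, which understates those of genes low in all libraries. A listed 0 among higher values, as for Hmgcs1, can instead widen them. The fit was tested on simulated data. Alternatives were pseudocounts of 0.01 and 1, quantile normalization or median-ratio scaling, a stricter filter (mean FPKM over 5) or none, a replicate block, no trend, a fit to the 6 libraries compared, and leaving out each library. The members and lists were chosen with earlier results of these data known, so their counts are descriptions and no set test was run. Besides the members, named genes were Scap, Insig2 and Srebf1, and from each list the 3 largest changes past the adjusted p in a comparison, of which the text gives a part. Some listed genes enter the counts of their list but are not reported here. Exceptions named after their values were seen are Ywhaz, Ebp, Cyp51, markers and enzymes quoted beside a member. Promoter and protein sequences were not analysed here.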

Additional observations from a re-analysis of the deposited data

Results flagged for a closer look

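Lss lay lower in LPS-MIC-1 than in the other groups in C2C12 and higher in muscle. In C2C12 its mean FPKM in LPS-MIC-1 was 38.6% of LPS and 21.2% of control, with every LPS-MIC-1 library below every library of those groups. In muscle it was 139% of LPS and 148% of control, with every LPS-MIC-1 library above them. In muscle Lss did not pass the filter on low values, and with all genes above 0 in at least 3 libraries tested by limma the difference from control passed (adjusted p = 0.0457) and that from LPS did not (adjusted p = 0.0845). The difference between the experiments was not tested, since the tables were normalized separately, and the muscle levels were near 1 FPKM. The C2C12 libraries compared carried different cell markers.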

How the results depend on the processing

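For single members, 298 of 321 alternative values in C2C12 kept their direction and side of the threshold, 20 lost the call, 3 gained it and 0 changed sign; in muscle these were 189, 0, 6 and 12 of 207. With 1 library left out in turn, the members called in C2C12 numbered 3 to 5 in LPS against control, 2 to 3 in LPS-MIC-1 against LPS and 4 to 6 in LPS-MIC-1 against control, and in muscle 0 to 1, 0 to 0 and 1 to 2. The other sterol enzymes called numbered 6 to 14, 9 to 11 and 10 to 12 in C2C12 and 1 to 2, 3 to 6 and 6 to 7 in muscle. No pair of same-numbered libraries had a correlation of deviations over 0.1 (-0.0757 to 0.0573 in C2C12, -0.054 to 0.0823 in muscle). No pairing by number was therefore seen, though groups of 3 libraries cannot show that there was none. With the replicate block, 3 members passed in LPS against control in C2C12, Insig1 (adjusted p = 0.00198) and Lss (adjusted p = 0.00126) missing the threshold.

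In muscle, LPS against control, the members called went from 0 to 1 with a mean FPKM over 5 (1 member left), quantile normalization or only the 6 libraries, and the sterol enzymes from 1 to 2 with a pseudocount of 1, quantile normalization or only the 6 libraries, and to 0 of 3 tested with a mean FPKM over 5. In LPS-MIC-1 against LPS, 1 member was called with no filter (Fdft1), and 2 of 3 sterol enzymes with a mean FPKM over 5. In LPS-MIC-1 against control, 3 members were called with no filter (Insig1, Fdft1, Lss), 2 with quantile normalization, and 2 of 3 sterol enzymes with a mean FPKM over 5. The cause was not tested, except where fewer genes were tested.

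Sign changes were all in muscle members that did not pass. With 1 library left out, the log2 fold change of Hmgcs1 ranged from -0.05 to 2.78 in LPS against control and from -1.78 to 1.64 in LPS-MIC-1 against control. In LPS-MIC-1 against LPS it ranged from -0.19 to 0.06 for Srebf2, from -0.16 to 0.10 for Idi1 and from -0.16 to 0.05 for Insig1. Exact zeros and values near 1 FPKM, as for Hmgcs1, Fdft1, Sqle and Lss in muscle, limit what these data can show.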
